A study of Homo sapiens with 8 samples.

Results

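The genes of cholesterol and fatty acid synthesis were examined by RNA-seq in SK-N-SH, an established line of human neuroblastoma cells. Their 35 members were chosen by name, of 60659 genes in the count table, as the enzymes and regulators of these pathways. They comprised 18 enzymes of sterol synthesis, 4 genes of the SREBP control system, 6 genes of cholesterol transport and its control, and 7 genes of fatty acid synthesis. Total RNA depleted of ribosomal RNA had been sequenced from 8 libraries, 2 biological replicates in each of 4 groups, and every culture had been given ATRA (all-trans retinoic acid) at 10 μM over 24 h. In the overexpression experiment, cells that express FLAG-tagged ZMYND8 under doxycycline (Dox) control, delivered by lentivirus (ZMYND8 OE), were set against parental cells that also received Dox (parental). In the knockdown experiment, cells with ZMYND8 knockdown (ZMYND8 KD) were set against cells with a control knockdown (KD control), and the labels name no Dox for either group. The label of the parental cells names no vector. A difference from ZMYND8 OE may thus hold the effects of transduction and selection as well as that of ZMYND8, and these cannot be told apart. The knockdown reagent in SK-N-SH cells was not given in the sources used here.

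Cells build cholesterol from acetyl-CoA through mevalonate, farnesyl diphosphate, squalene and lanosterol, and they build fatty acids from the same precursor. When membranes of the endoplasmic reticulum are poor in sterol, SCAP escorts the SREBP transcription factors to the Golgi, where they are cleaved and released to switch on the genes of both pathways, while INSIG proteins hold SCAP back when sterol is plentiful. Oxysterols act through the LXR receptors, which drive export of cholesterol by ABCA1 and ABCG1. These receptors also raise MYLIP, a ubiquitin ligase that sends lipoprotein receptors to degradation. Neurons use cholesterol for axons and synapses. ZMYND8 is a reader of histone marks that takes part in activation and repression of transcription.

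Library totals on genes ranged from 38316523 to 56256979 counts. In normalized counts (counts scaled to a common library size with TMM factors), ZMYND8 measured 3674 and 3532 in parental cells and 207317 and 209975 in ZMYND8 OE. It measured 3008 and 3082 in KD control and 1584 and 1591 in ZMYND8 KD, so the labels and the targeted gene went together. Of 8 adrenergic neuroblastoma markers, 7 could be tested, and all 7 were higher in ZMYND8 OE than in parental cells (median log2 fold change 1.82), whereas 7 of 8 mesenchymal markers were lower and TWIST1 was higher. By the calls defined below, 26.6% of all genes tested were higher in that comparison and 27.8% lower. The summed level of the adrenergic list, in reads per kilobase of exon at a common depth (RPKM, scaled with the TMM factors), was 125 to 126 in parental, 353 to 372 in ZMYND8 OE, 242 to 254 in KD control and 188 to 211 in ZMYND8 KD. That of the mesenchymal list was 1209 to 1264, 526 to 558, 585 to 604 and 735 to 765 RPKM in the same order. In the knockdown, 4 of 7 adrenergic markers tested were lower, and of 8 mesenchymal markers 4 were higher and 2 lower. Over all genes 10.6% were lower there and 13.1% higher. In KD control against parental, all 7 adrenergic markers tested were also higher (median log2 fold change 1.19). Of 8 mesenchymal markers, 5 were lower and 3 higher there, where 32.8% of all genes were lower and 29.6% higher. TH, which makes the precursor of dopamine, was not tested for its low counts. Hepatocyte markers summed to at most 0.139 RPKM in any library and adipocyte markers to at most 0.259 RPKM, so genes that define the lipid-making organs were near 0. Glia markers summed to 1.31 to 2.39 RPKM. The part of these state markers in the results below was not tested. In bulk RNA, fewer cells of a type and less RNA per cell cannot be told apart.

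Most of the 35 genes were lower when ZMYND8 was overexpressed, and a smaller number were also lower when it was knocked down. All 35 passed the filter on low counts in every comparison, with raw counts of 51 to 141980 per library. A gene was called at an adjusted p below 0.05 by edgeR's quasi-likelihood test, with a mean normalized count above 20. In ZMYND8 OE against parental, 31 of 35 genes were called (88.6%), where 54.4% of all 20835 genes tested were. Of the 35, 27 were lower (77.1%) and 4 higher (11.4%), and over all genes tested 27.8% were lower and 26.6% higher. The median log2 fold change of the 35 was -0.68, and that of all genes was 0.03. A change of at least 2-fold was reached by 15 of them, 14 lower and 1 higher, against 18.6% of all genes in either direction. In ZMYND8 KD against KD control, 20 of 35 were called (57.1%), where 23.8% of all 19789 genes tested were. Of the 35, 17 were lower (48.6%) and 3 higher (8.57%), against 10.6% lower and 13.1% higher over all genes tested. The median of the 35 was -0.22 and that of all genes -0.01. None reached 2-fold in the knockdown, where 1.96% of all genes did. The members were measured with more counts than most genes: the mean normalized count had a median of 4041 over the 35 genes and 468 over all genes in the OE fit, and of 3245 and 582 in the KD fit, and a deep count makes a small difference easier to call. Without the filter on low counts, 13 of 35 were called in the knockdown, 11 lower and 2 higher. Over all genes, 2932 were called in that fit, against 4707 with the filter. MVD, FDFT1, CYP51A1, HSD17B7, INSIG1, SREBF2 and ABCG1 were no longer called there (adjusted p 0.0571 to 0.108).

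**Figure D1:**
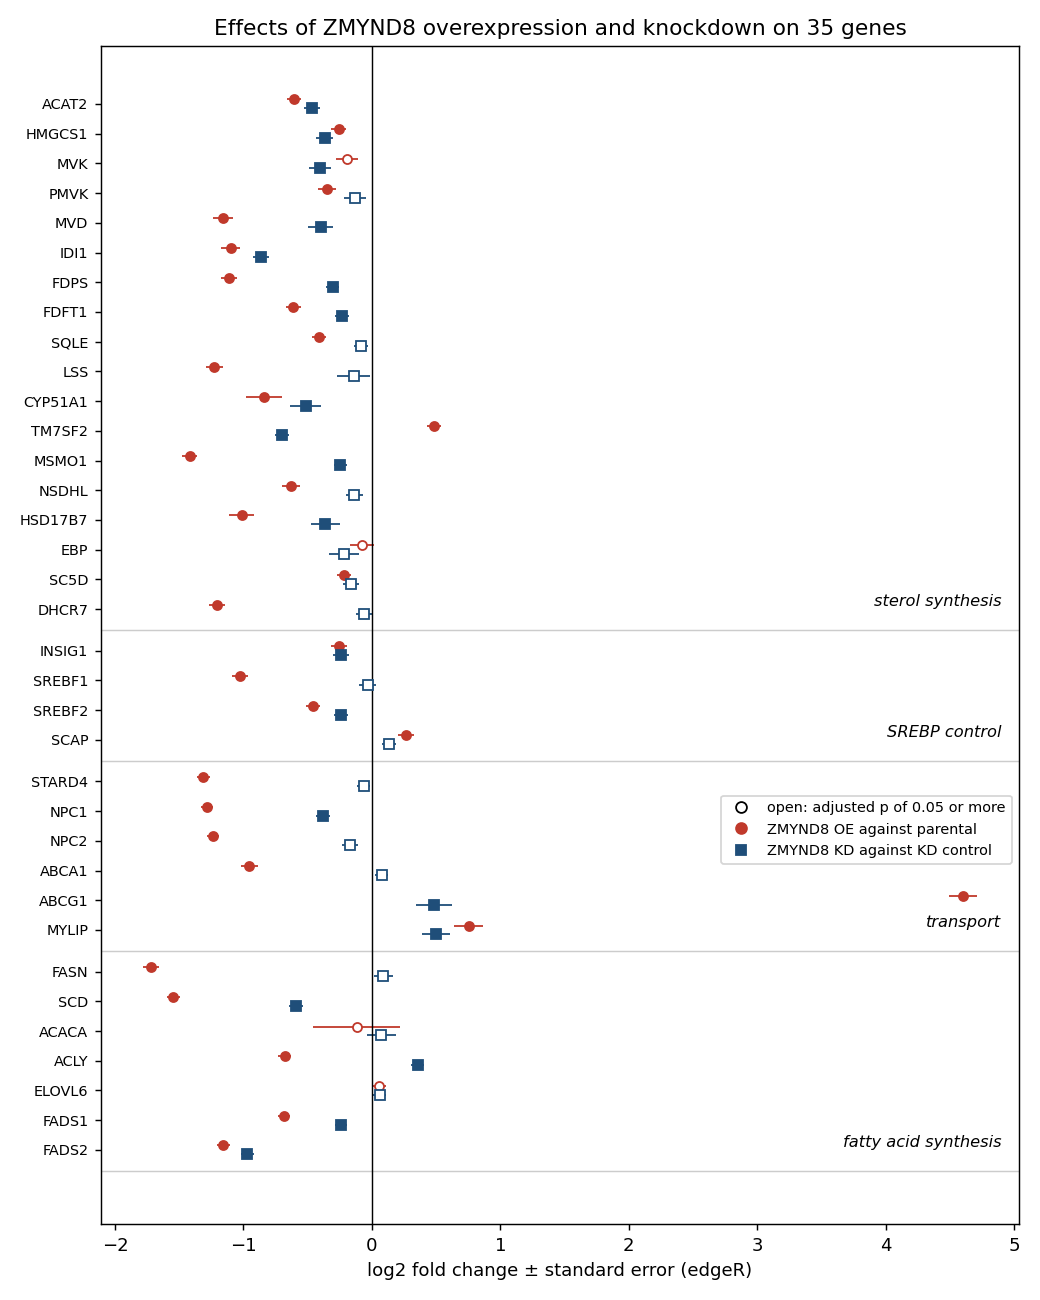
The log2 fold change of each of the 35 genes is plotted with its standard error, for ZMYND8 OE against parental (circles) and ZMYND8 KD against KD control (squares), with open symbols for an adjusted p of 0.05 or more and genes grouped by role. In ZMYND8 OE, 27 genes lie significantly left of 0 with ABCG1 far to the right at 4.60, and in ZMYND8 KD the squares lie between -0.97 and 0.50.

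The sterol enzymes that lead to farnesyl diphosphate were lower in both experiments for 5 of 7 genes. In ZMYND8 OE, 6 of the 7 were lower and MVK, mevalonate kinase, was not called (log2 fold change -0.19, adjusted p 0.075, or 0.0213 without ZMYND8 OE replicate 1 and 0.0282 with trends in gene length and GC content taken out). In ZMYND8 KD, 6 of the 7 were lower, MVK among them at -0.40, and PMVK, the next kinase, was not called at -0.13. IDI1, which isomerizes isopentenyl diphosphate, had 3027 and 2627 normalized counts in parental and 1360 and 1257 in ZMYND8 OE. Its counts were 2549 and 2621 in KD control and 1373 and 1467 in ZMYND8 KD. Both treated groups lay well below their own controls, and the control groups lay close together. IDI1 fell by 53.3% in ZMYND8 OE (log2 fold change -1.10 ± 0.075 SE, adjusted p 4.19e-07) and by 45% in ZMYND8 KD (-0.86 ± 0.061, adjusted p 6.49e-06). The difference of its effects in the 2 experiments was -0.24 ± 0.10 and missed the threshold (adjusted p 0.0603), though it passed under 7 of the alternatives listed with the test of the differences. MVD, which decarboxylates mevalonate diphosphate, had 1518 and 1468 normalized counts in parental, 629 and 704 in ZMYND8 OE, 768 and 683 in KD control, and 578 and 520 in ZMYND8 KD. It fell by 55.1% in ZMYND8 OE (-1.16 ± 0.077, adjusted p 3.7e-07) and by 24.1% in ZMYND8 KD (-0.40 ± 0.099, adjusted p 0.0147), where the call was lost without KD control replicate 1 (adjusted p 0.105) or ZMYND8 KD replicate 2 (0.0587). Most of the contrast in MVD thus lay between the parental libraries and the other 6. FDPS, farnesyl diphosphate synthase, had 6708 and 6881 normalized counts in parental, 3298 and 2928 in ZMYND8 OE, 4178 and 3918 in KD control, and 3241 and 3293 in ZMYND8 KD. It fell by 53.8% (-1.12 ± 0.062, adjusted p 8.77e-08) and by 19.1% (-0.31 ± 0.052, adjusted p 0.00175) respectively. ACAT2, which joins acetyl-CoA units, fell by 34.4% in ZMYND8 OE and 27.6% in ZMYND8 KD, and HMGCS1, HMG-CoA synthase, by 16.4% and 22.5%. The OE value of HMGCS1 was -0.26 (adjusted p 0.00367) and became -0.14 with the length and GC trends taken out, where it was not called (adjusted p 0.0702). PMVK fell by 21.4% in ZMYND8 OE.

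Squalene and lanosterol formation was lower for 3 of 3 genes in ZMYND8 OE and for 1 of 3 in ZMYND8 KD. LSS, lanosterol synthase, had 1645 and 1622 normalized counts in parental, 696 and 690 in ZMYND8 OE, 520 and 416 in KD control, and 395 and 451 in ZMYND8 KD. It fell by 57.3% in ZMYND8 OE (-1.23 ± 0.067, adjusted p 7.48e-08). In the knockdown its groups overlapped, with a log2 fold change of -0.14 ± 0.13 (adjusted p 0.467). FDFT1, squalene synthase, fell by 34.6% in ZMYND8 OE and 14.9% in ZMYND8 KD, where its adjusted p was 0.0122 and became 0.0742 without KD control replicate 1 and 0.0740 without ZMYND8 KD replicate 2. SQLE, squalene epoxidase, fell by 24.9% in ZMYND8 OE, and its log2 fold change in the knockdown was -0.08 (adjusted p 0.332).

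Among the 8 enzymes from lanosterol to cholesterol, 6 were lower and 1 higher in ZMYND8 OE, and 4 were lower in ZMYND8 KD. MSMO1, which oxidizes a sterol methyl group, had 6456 and 6501 normalized counts in parental, 2519 and 2290 in ZMYND8 OE, 5557 and 5222 in KD control, and 4513 and 4558 in ZMYND8 KD. The OE libraries stood apart from all 6 others. MSMO1 fell by 62.6% in ZMYND8 OE (-1.42 ± 0.057, adjusted p 7.61e-09) and by 15.7% in ZMYND8 KD (-0.25 ± 0.050, adjusted p 0.00522). HSD17B7, a sterol ketone reductase, had 736 and 812 normalized counts in parental, 394 and 367 in ZMYND8 OE, 484 and 453 in KD control, and 341 and 387 in ZMYND8 KD. It fell by 50.5% in ZMYND8 OE (-1.01 ± 0.10, adjusted p 7.61e-06) and by 22.1% in ZMYND8 KD (-0.36 ± 0.11, adjusted p 0.0361). The knockdown call of HSD17B7 was lost with DESeq2 (adjusted p 0.0753) and without KD control replicate 1, KD control replicate 2 or ZMYND8 KD replicate 1 (adjusted p 0.0948 to 0.208). DHCR7, which completes the pathway by reducing 7-dehydrocholesterol, had 5825 and 6097 normalized counts in parental and 2700 and 2422 in ZMYND8 OE. It had 3105 and 2951 in KD control and 3026 and 2762 in ZMYND8 KD, where the libraries overlapped. DHCR7 fell by 56.7% in ZMYND8 OE (-1.21 ± 0.062, adjusted p 4.57e-08), and its knockdown value was -0.06 ± 0.061 (adjusted p 0.511).

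TM7SF2, a sterol reductase that acts just after CYP51A1, moved in opposite directions in the 2 experiments. It had 4425 and 4573 normalized counts in parental, 5978 and 6535 in ZMYND8 OE, 4454 and 4139 in KD control, and 2694 and 2588 in ZMYND8 KD. The 2 control groups overlapped, with the OE libraries above them and the KD libraries below. TM7SF2 was 1.40-fold higher in ZMYND8 OE (0.48 ± 0.056, adjusted p 2.76e-05) and fell by 38.4% in ZMYND8 KD (-0.70 ± 0.056, adjusted p 1.38e-05). The difference of the 2 effects was 1.18 ± 0.082 (adjusted p 1.62e-08). It was the single sterol enzyme called higher in ZMYND8 OE. Of the other enzymes of this stretch, CYP51A1, which demethylates lanosterol, had log2 fold changes of -0.84 in ZMYND8 OE and -0.52 in ZMYND8 KD, both called, the second not without KD control replicate 1 (adjusted p 0.0869). NSDHL, a sterol dehydrogenase, was called at -0.63 in ZMYND8 OE and stood at -0.14 in ZMYND8 KD (adjusted p 0.166). SC5D, a sterol desaturase, was called at -0.22 in ZMYND8 OE, and stood at -0.16 in ZMYND8 KD (adjusted p 0.0941). Neither was stable: the OE call of SC5D was lost without parental replicate 1 (adjusted p 0.0576), with upper quartile normalization (0.0517), with the length trend taken out (0.0630) and with the length and GC trends taken out, where its value was -0.05 (0.442). Its knockdown value was called without KD control replicate 1 (adjusted p 0.0494), without ZMYND8 KD replicate 2 (0.0394) and with the replicate number as a block (0.0131). EBP, a sterol isomerase, was called in neither, at -0.08 and -0.22. Over the 18 sterol enzymes the median log2 fold change was -0.62 in ZMYND8 OE, with 15 lower and 1 higher, and -0.28 in ZMYND8 KD, with 11 lower and none higher. All 18 values in the knockdown were below 0, as were those of 10144 of all 19789 genes tested. With a library left out, LSS and DHCR7 came to lie just above 0 (up to 0.0197 and 0.00762). In 15 of 18 both KD libraries lay below both KD control libraries, as they did in 31% of all genes tested.

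**Figure D2:**
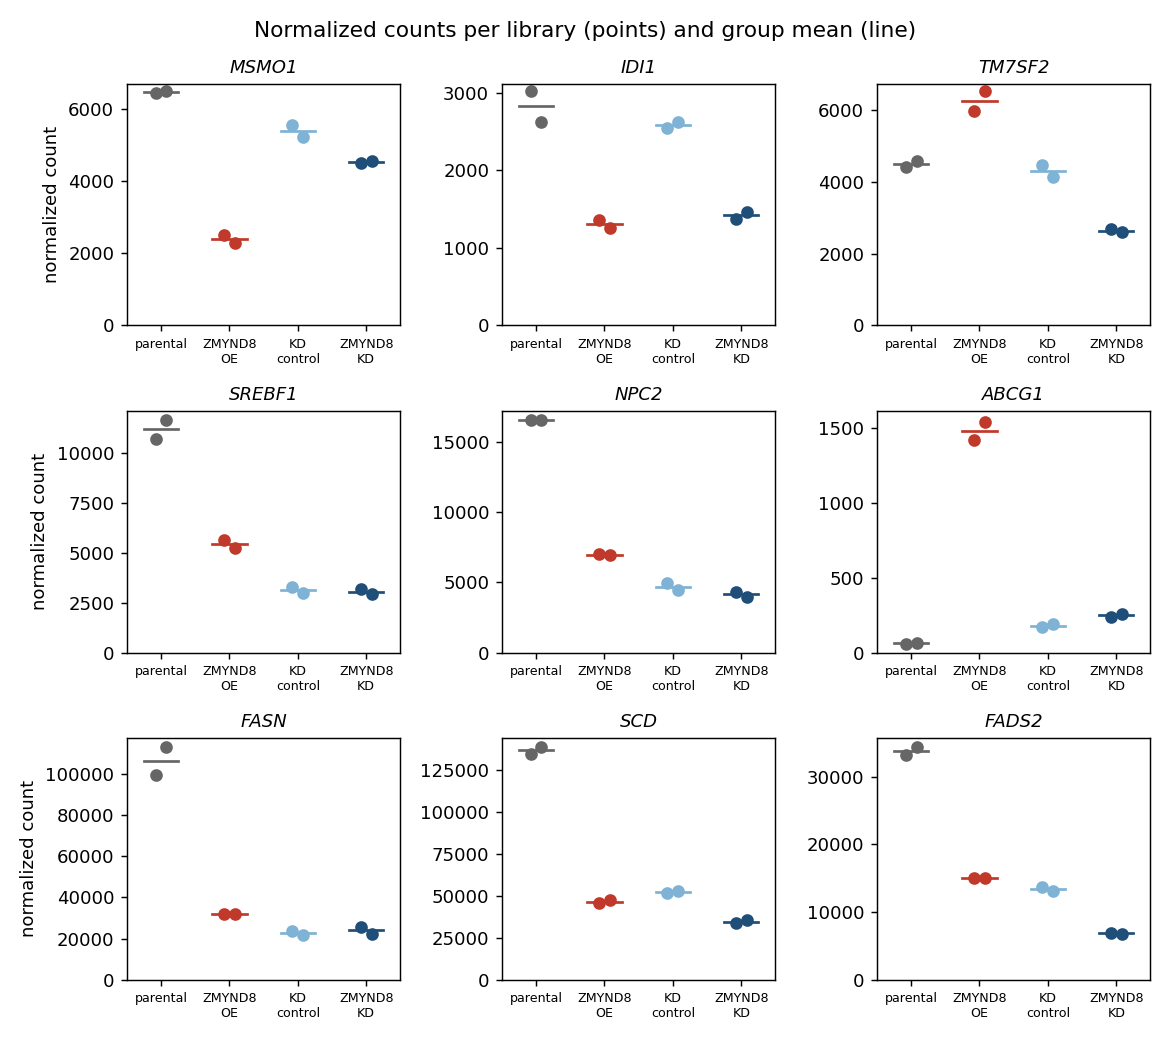
Normalized counts of 9 genes are shown for each library (points) with the group mean (line), on axes that start at 0, for the 4 groups of 2 libraries. IDI1 is low in both treated groups, TM7SF2 is high in ZMYND8 OE and low in ZMYND8 KD, and SREBF1, NPC2, FASN, SCD and FADS2 stand highest in the parental libraries.

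The promoters were searched for elements known from these pathways. In RefSeq promoters (GRCh38.p14, 250 bases before to 50 bases after the start), 30 of the 35 genes were matched, and FASN, ABCG1, ACAT2, SQLE and FDFT1 were not. The NF-Y box CCAAT, bound by a factor that works beside SREBP at sterol genes, was present on either strand in 22 of 30 promoters (73.3%), against 39.7% of 27305 genes with a promoter. It was found in 13 of 15 sterol promoters, 2 of 4 SREBP control promoters, 3 of 5 transport promoters and 4 of 6 fatty acid promoters. The sterol regulatory element in the form TCACNCCAC, where N is any base, was present in 1 of 30 (3.33%), SREBF2, against 1.39% of all genes. These shares describe letters in a fixed window and were not tested. The stretches below lie before the start of the whole gene in the count table, are written 5′ to 3′ on the strand of the gene, and show the box in capitals (CCAAT, or ATTGG where it lies on the other strand) for 5 genes that fell by over 50% in ZMYND8 OE.
MSMO1 (chr4:165327617-165327657, plus strand): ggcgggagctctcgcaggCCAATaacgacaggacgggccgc
LSS (chr21:46228902-46228942, minus strand): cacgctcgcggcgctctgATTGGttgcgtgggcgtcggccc
HSD17B7 (chr1:162790632-162790672, plus strand): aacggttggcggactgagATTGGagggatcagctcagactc
STARD4 (chr5:111512643-111512683, minus strand): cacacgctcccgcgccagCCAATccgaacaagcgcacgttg
SCD (chr10:100347029-100347069, plus strand): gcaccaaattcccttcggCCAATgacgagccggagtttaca

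Of the 4 SREBP control genes, 3 were lower and SCAP was higher in ZMYND8 OE, and SREBF2 and INSIG1 were lower in ZMYND8 KD. SREBF1 encodes SREBP-1, which leans towards fatty acid genes. It had 10694 and 11666 normalized counts in parental, 5658 and 5253 in ZMYND8 OE, 3260 and 2998 in KD control, and 3183 and 2916 in ZMYND8 KD. SREBF1 fell by 50.9% in ZMYND8 OE (-1.03 ± 0.061, adjusted p 1.46e-07), whereas the knockdown groups overlapped (-0.03 ± 0.063, adjusted p 0.749). SREBF2 encodes SREBP-2, which leans towards sterol genes. It had 6786 and 7170 normalized counts in parental, 4928 and 5164 in ZMYND8 OE, 4304 and 4032 in KD control, and 3638 and 3398 in ZMYND8 KD. It fell by 27.3% in ZMYND8 OE (-0.46 ± 0.053, adjusted p 2.51e-05) and by 15.4% in ZMYND8 KD (-0.24 ± 0.057, adjusted p 0.0112, or 0.0850 without KD control replicate 1). Its promoter holds the sterol regulatory element shown here in capitals, at which SREBP-2 is known to act on its own gene.
SREBF2 (chr22:41832954-41832998, plus strand): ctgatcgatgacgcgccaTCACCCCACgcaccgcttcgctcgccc

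INSIG1, which retains SCAP in the endoplasmic reticulum and is itself a target of SREBP, had 4242 and 4681 normalized counts in parental, 3591 and 3852 in ZMYND8 OE, 2390 and 2572 in KD control, and 2009 and 2180 in ZMYND8 KD. It fell by 16.2% in ZMYND8 OE (-0.25 ± 0.062, adjusted p 0.00472) and by 15.4% in ZMYND8 KD (-0.24 ± 0.064, adjusted p 0.0202), where the call was lost without KD control replicate 2 (adjusted p 0.169) or ZMYND8 KD replicate 1 (0.0786). The effects on INSIG1 in the 2 experiments differed by -0.02 ± 0.092 (adjusted p 0.90). SCAP, the escort of SREBP, was higher in ZMYND8 OE (0.26 ± 0.063, adjusted p 0.00409) and was not called in ZMYND8 KD (0.14 ± 0.055, adjusted p 0.102, or 0.0192 with the replicate number as a block). The call of SCAP in ZMYND8 OE was lost without parental replicate 1 (adjusted p 0.0664).

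Of the 6 transport genes, 4 were lower in ZMYND8 OE, whereas ABCG1 and MYLIP rose in both experiments. ABCG1, an exporter of cholesterol to lipoproteins, had 60.7 and 61.6 normalized counts in parental, 1422 and 1540 in ZMYND8 OE, 169 and 189 in KD control, and 239 and 261 in ZMYND8 KD. No 2 groups overlapped. ABCG1 was 24.3-fold higher in ZMYND8 OE (4.60 ± 0.11, adjusted p 1.97e-10), the largest change among the 35 in either experiment, and 1.40-fold higher in ZMYND8 KD (0.48 ± 0.14, adjusted p 0.0280). The knockdown call of ABCG1 was lost with DESeq2 (adjusted p 0.0700) and without KD control replicate 1, KD control replicate 2 or ZMYND8 KD replicate 2 (adjusted p 0.0698 to 0.149). MYLIP had 299 and 323 normalized counts in parental, 487 and 558 in ZMYND8 OE, 312 and 296 in KD control, and 423 and 434 in ZMYND8 KD. Its control groups overlapped each other and lay below both treated groups. MYLIP was 1.69-fold higher in ZMYND8 OE (0.75 ± 0.11, adjusted p 0.000214) and 1.41-fold higher in ZMYND8 KD (0.50 ± 0.11, adjusted p 0.00712), a call lost without KD control replicate 2 (adjusted p 0.0615).

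ABCA1, the other exporter under LXR, did not follow ABCG1. It fell by 48.4% in ZMYND8 OE (-0.95 ± 0.067, adjusted p 5.45e-07) and stood at 0.08 ± 0.049 in ZMYND8 KD (adjusted p 0.298). Its promoter holds an LXR direct repeat of 15 letters, the single match among the 30 promoters (3.33%, against 0.3% of all genes), printed here with the repeat in capitals as it reads on the strand of the gene.
ABCA1 (chr9:104928192-104928242, minus strand): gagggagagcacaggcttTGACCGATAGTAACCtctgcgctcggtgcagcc

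The 3 genes that carry cholesterol inside the cell were all lower in ZMYND8 OE. STARD4, a soluble sterol carrier, had 6340 and 6609 normalized counts in parental, 2565 and 2621 in ZMYND8 OE, 4960 and 5046 in KD control, and 4622 and 4932 in ZMYND8 KD. It fell by 59.7% in ZMYND8 OE (-1.31 ± 0.051, adjusted p 5.65e-09) and stood at -0.06 ± 0.051 in ZMYND8 KD (adjusted p 0.412). NPC1 and NPC2 pass cholesterol out of the lysosome. NPC1 had 6375 and 6545 normalized counts in parental, 2630 and 2642 in ZMYND8 OE, 4719 and 4514 in KD control, and 3631 and 3442 in ZMYND8 KD. It fell by 58.9% in ZMYND8 OE (-1.28 ± 0.049, adjusted p 5.11e-09) and by 23.2% in ZMYND8 KD (-0.38 ± 0.053, adjusted p 0.000523). NPC2 followed a different order of groups, with 16598 and 16582 normalized counts in parental, 7002 and 6953 in ZMYND8 OE, 4935 and 4448 in KD control, and 4338 and 3986 in ZMYND8 KD. NPC2 fell by 57.7% in ZMYND8 OE (-1.24 ± 0.047, adjusted p 4.6e-09) and stood at -0.17 ± 0.064 in ZMYND8 KD (adjusted p 0.0804, or 0.00837 without ZMYND8 KD replicate 1 and 0.00516 with the replicate number as a block). NPC2 libraries of KD control lay below those of ZMYND8 OE, whereas those of STARD4 and NPC1 lay above.

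Fatty acid synthesis genes were lower in ZMYND8 OE for 5 of 7, and split in the knockdown. FASN, fatty acid synthase, had 99456 and 112799 normalized counts in parental, 32007 and 32086 in ZMYND8 OE, 23580 and 21600 in KD control, and 25582 and 22405 in ZMYND8 KD. It fell by 69.6% in ZMYND8 OE (-1.72 ± 0.065, adjusted p 4.52e-09), the largest decrease among the 35. In the knockdown its groups overlapped (0.09 ± 0.071, adjusted p 0.404). SCD, which places the double bond in stearic and palmitic acid, had 134743 and 138840 normalized counts in parental, 45640 and 47546 in ZMYND8 OE, 51830 and 52767 in KD control, and 33740 and 35661 in ZMYND8 KD. It fell by 65.7% in ZMYND8 OE (-1.54 ± 0.051, adjusted p 1.7e-09) and by 33.5% in ZMYND8 KD (-0.59 ± 0.054, adjusted p 3.35e-05). FADS2, a desaturase at the entry to long polyunsaturated fatty acids, was the gene that changed most in the knockdown among the 35. It had 33203 and 34320 normalized counts in parental, 15087 and 15020 in ZMYND8 OE, 13677 and 13130 in KD control, and 6891 and 6775 in ZMYND8 KD. FADS2 fell by 55.1% in ZMYND8 OE (-1.16 ± 0.048, adjusted p 9.85e-09) and fell by 48.9% in ZMYND8 KD (-0.97 ± 0.050, adjusted p 9.81e-07).

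FADS1, the desaturase that follows FADS2, lies on chromosome 11 within the counted span of FADS2, on the opposite strand. FADS1 fell by 37.9% in ZMYND8 OE and 15.3% in ZMYND8 KD. ACLY, which supplies cytosolic acetyl-CoA to both pathways, was lower in ZMYND8 OE (-0.68 ± 0.050, adjusted p 8.56e-07) and higher in ZMYND8 KD (0.36 ± 0.050, adjusted p 0.000553). ELOVL6, which elongates palmitic acid, was called in neither, at 0.06 in both. In ZMYND8 OE it was called higher with upper quartile normalization (0.14, adjusted p 0.0266) and with the length and GC trends taken out (0.16, adjusted p 0.0150). ACACA, which makes malonyl-CoA, was called in neither, and its ZMYND8 OE libraries lay apart at 480 and 1375 normalized counts, around the 909 and 1086 of parental. Its log2 fold change was 0.47 without ZMYND8 OE replicate 1 and -1.04 without replicate 2, each with an adjusted p below 0.05, so no direction was read from it. The median over the 7 genes was -0.69 in ZMYND8 OE and 0.06 in ZMYND8 KD. The OE median was -1.04, the value of ACACA, without ZMYND8 OE replicate 2. The knockdown median took the values of genes that were not called, and it was -0.12 without ZMYND8 KD replicate 1.

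Across both experiments, 19 of the 35 genes were called in each, as were 18.7% of the 18504 genes tested in both. Lower in both were 15 of the 35, against 4.38% of the 18504 genes. These were ACAT2, HMGCS1, MVD, IDI1, FDPS, FDFT1, CYP51A1, MSMO1, HSD17B7, INSIG1, SREBF2, NPC1, SCD, FADS1 and FADS2. Higher in both were 2 of the 35 (ABCG1 and MYLIP), against 2.78% of the 18504. TM7SF2 was higher in ZMYND8 OE and lower in ZMYND8 KD, and ACLY was lower in ZMYND8 OE and higher in ZMYND8 KD. A further 11 genes were lower in ZMYND8 OE and not called in ZMYND8 KD, SCAP was higher in ZMYND8 OE alone, MVK was lower in ZMYND8 KD alone, and EBP, ACACA and ELOVL6 were called in neither. A model over all 8 libraries tested the difference of the 2 effects directly. It called 22 of 35 genes (62.9%), against 44.6% of all 22619 genes tested. The OE effect was called the lower in 20 of the 35 (57.1%), against 23.2% of all genes tested. It was called the higher in TM7SF2 and ABCG1 (5.71% of the 35), against 21.4%. The difference for SREBF2 (-0.22, adjusted p 0.0307) and FADS2 (-0.19, adjusted p 0.0317) was no longer called with upper quartile normalization (adjusted p 0.138 and 0.156). Both calls were also lost without KD control replicate 2, ZMYND8 KD replicate 1, parental replicate 2 or ZMYND8 OE replicate 1, and that of FADS2 without ZMYND8 KD replicate 2 or ZMYND8 OE replicate 2 (adjusted p 0.0505 to 0.147 over these fits). For ACAT2, HMGCS1, IDI1, CYP51A1, INSIG1 and MYLIP, each called the same way in both experiments, the difference missed the threshold (adjusted p 0.0603 to 0.90). That of IDI1 was called with RLE normalization, DESeq2, no filter on low counts or the replicate number as a block (adjusted p 0.00326 to 0.0448), and without ZMYND8 KD replicate 1, parental replicate 2 or ZMYND8 OE replicate 1 (0.0153 to 0.0483). That of ACAT2 was called with RLE normalization (-0.21, adjusted p 0.0440). The difference for PMVK (-0.22, adjusted p 0.117) was called with RLE normalization, without the filter and without ZMYND8 KD replicate 1 (adjusted p 0.0292 to 0.0486), and that for ACACA without ZMYND8 OE replicate 2 (-1.13, adjusted p 0.000166).

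The 2 control groups also differed from each other in these genes. They differed in experiment, in the control knockdown and in Dox, and these cannot be told apart. In KD control against parental, 28 of 35 genes were called, against 62.4% of all 20385 genes tested. Of the 35, 25 were lower (71.4%, against 32.8% of all genes) and 3 higher (8.57%, against 29.6% of all genes), with a median of -0.54. The median was -0.29 over the sterol enzymes and -1.04 over the fatty acid genes, and that of all genes was -0.00. FASN stood at -2.22 ± 0.071 in this comparison, SREBF1 at -1.83 ± 0.061, NPC2 at -1.81 ± 0.058 and LSS at -1.80 ± 0.098, each with an adjusted p of at most 4.46e-08. IDI1 at -0.12, TM7SF2 at -0.06, MYLIP at -0.03 and ABCA1 at 0.09 were not called, and HMGCS1 at 0.19, NSDHL at 0.25 and ABCG1 at 1.56 were higher. Several of these calls turned on the processing. With the length and GC trends taken out, TM7SF2 was called higher (0.42, adjusted p 3.79e-05), IDI1 (-0.20, adjusted p 0.0224) and SC5D (-0.21, adjusted p 0.0150, from 0.005) were called lower, and HMGCS1 was not called (0.07, adjusted p 0.322). In the same fit MVK (-0.29 before and 0.09 after, adjusted p 0.358) and PMVK (-0.26 and -0.09, adjusted p 0.276) were no longer called. ABCA1 was called higher with upper quartile normalization (0.15, adjusted p 0.0209). IDI1 was also called lower without the filter on low counts (adjusted p 0.0359) and without parental replicate 2 (0.00840), where CYP51A1 was called higher (0.0452) and PMVK was not called (0.0661). HMGCS1 was not called without KD control replicate 2 (adjusted p 0.0990). Of the proliferation markers, 7 of 8 were lower in KD control than in parental and MKI67 was higher, with summed levels of 314 to 315 RPKM in parental, 288 to 312 in ZMYND8 OE, 139 to 151 in KD control and 124 to 135 in ZMYND8 KD. The part of growth state in the difference between the control groups was not tested.

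The parental libraries therefore stood out among the 4 groups. Parental cells held the highest mean in 25 of the 35 genes, and in 23 both parental libraries lay above all 6 others, as did 19.5% of all 22619 genes tested over the 8 libraries. The lowest mean lay in ZMYND8 KD for 16 genes and in ZMYND8 OE for 13. The shares of all genes with their highest or lowest mean in each group were not computed. The comparison with parental cells shares those libraries, so that a high parental level enters both ZMYND8 OE against parental and KD control against parental. The summed level of the 35 genes was 1536 to 1606 RPKM in parental, 745 to 756 in ZMYND8 OE, 722 to 738 in KD control and 621 in both ZMYND8 KD libraries. For the sterol enzymes the sums were 303 to 308 RPKM in parental, 197 to 198 in ZMYND8 OE, 225 to 235 in KD control and 184 to 188 in ZMYND8 KD. The order of ZMYND8 OE and KD control was thus opposite in the sterol enzymes to that in the fatty acid genes, which summed to 963 to 1018, 391.9 to 399.9, 370 to 371 and 312 to 314 RPKM in the same order of groups. These 2 groups come from different experiments and were not tested against each other.

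**Figure D3:**
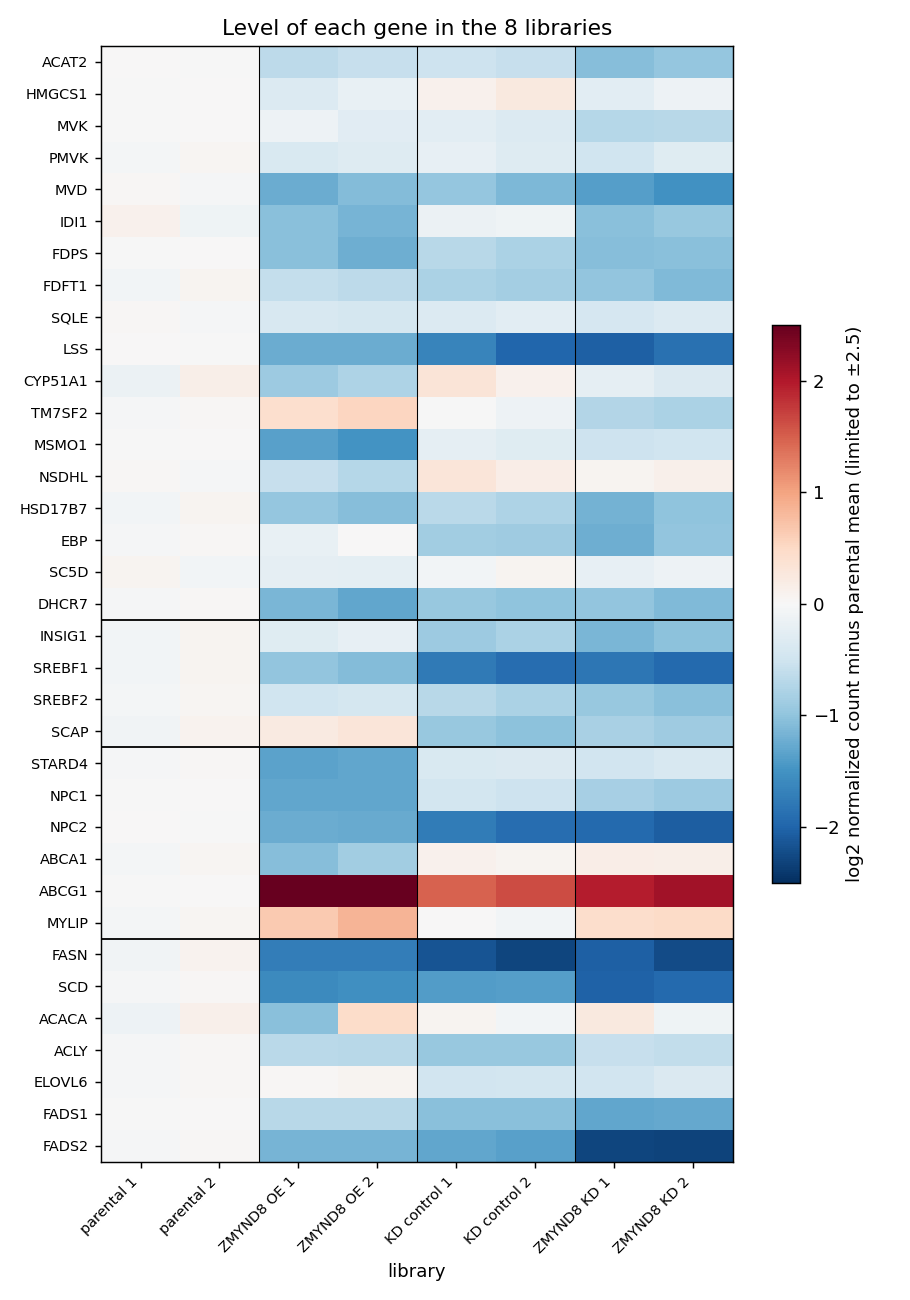
Each of the 35 genes (rows, grouped by role) is coloured in each of the 8 libraries (columns) by its log2 normalized count minus the parental mean, with blue for lower, red for higher and the scale limited to 2.5 either way. Blue fills most of the 6 libraries that are not parental, ABCG1 is red in all 6, and TM7SF2 is red in ZMYND8 OE and blue in ZMYND8 KD.

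Levels per length put the fatty acid genes at the top. SCD had the highest RPKM in each group, with 516 ± 11 in parental, 176 ± 5.1 in ZMYND8 OE, 197 ± 2.5 in KD control and 131 ± 5.1 in ZMYND8 KD (SD, n = 2), and it held 32.8%, 23.4%, 27.03% and 21.1% of the summed RPKM of the 35 in these groups. FASN followed in parental cells with 225 ± 20 RPKM, ACLY with 136 ± 5.1 and NPC2 with 127 ± 0.090. In ZMYND8 KD, ACLY at 90.5 ± 1.7 RPKM lay above FASN at 50.9 ± 4.8. Among sterol enzymes, MSMO1 at 44.9 ± 0.22, FDFT1 at 36.8 ± 2.2 and FDPS at 36.2 ± 0.65 RPKM led in parental cells, where FDFT1 and FDPS lay within their spread. TM7SF2 led in ZMYND8 OE with 36.1 ± 2.3 RPKM, and MSMO1 led in KD control and ZMYND8 KD with 37.4 ± 1.6 and 31.5 ± 0.22. ABCG1 was the lowest of the 35 in parental cells at 0.198 ± 0.0022 RPKM and reached 4.79 ± 0.27 in ZMYND8 OE, below ABCA1 at 10.7 ± 1.0.

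**Figure D4:**
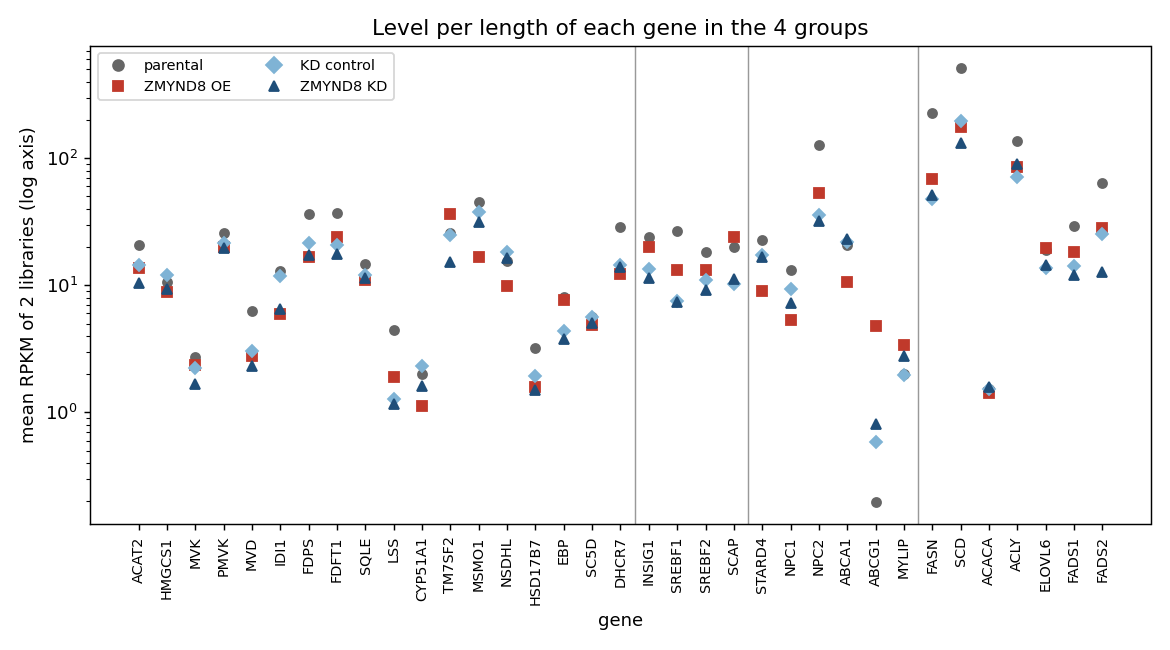
The mean RPKM over 2 libraries is plotted on a log axis for each of the 35 genes in the 4 groups, with vertical lines between the roles. SCD is the highest in every group, from 131 to 516 RPKM, and ABCG1 runs from 0.198 in parental to 4.79 in ZMYND8 OE.

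Other genes of sterol homeostasis, from a list of 33, were called in ZMYND8 OE for 26 of 31 tested, 18 lower and 8 higher, and in ZMYND8 KD for 10 of 32, 4 lower and 6 higher. These are 83.9% and 31.2%, against 54.4% and 23.8% of all genes, so the knockdown share lay near that of all genes. CYP27A1, which makes an oxysterol from cholesterol, had 282 and 337 normalized counts in parental and 83.6 and 85.0 in ZMYND8 OE, and fell by 72.6% (-1.87 ± 0.16, adjusted p 2.67e-06). CYP46A1, the cholesterol hydroxylase of neurons, was higher in ZMYND8 OE (1.72 ± 0.37, adjusted p 0.0022) at low counts of 57.3 and 33.3 against 13.1 and 14.7. ABCG4, a transporter related to ABCG1, was also higher (1.72 ± 0.17, adjusted p 6.82e-06), with 304 and 378 against 114 and 94.9 normalized counts. In the knockdown, ERLIN2, an endoplasmic reticulum protein that takes part in sterol regulation, had 5177 and 5026 normalized counts in KD control and 2025 and 2026 in ZMYND8 KD, and fell by 60.2% (-1.33 ± 0.051, adjusted p 2.3e-07). It fell by 32.9% in ZMYND8 OE. GRAMD1B, a carrier of plasma membrane cholesterol, was lower in both, at -1.22 ± 0.054 and -0.78 ± 0.063. APOE, the lipoprotein of the brain and a target of LXR, moved like TM7SF2: it was 2.05-fold higher in ZMYND8 OE, with 4980 and 5416 against 2499 and 2606 normalized counts (1.03 ± 0.057, adjusted p 8.58e-08). In the knockdown APOE fell by 38.1%, from 3924 and 3693 to 2373 and 2335 normalized counts (-0.69 ± 0.054, adjusted p 1.19e-05).

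Other genes of fatty acid and glycerolipid synthesis, from a list of 40, were called in ZMYND8 OE for 31 of 37 tested, 19 lower and 12 higher, and in ZMYND8 KD for 17 of 38, 12 lower and 5 higher. These are 83.8% and 44.7%, against 54.4% and 23.8% of all genes. PPARGC1A, a coactivator of oxidative metabolism, had 39.3 and 33.2 normalized counts in parental, 2720 and 3040 in ZMYND8 OE, 166 and 206 in KD control, and 100 and 118 in ZMYND8 KD. It was 80.2-fold higher in ZMYND8 OE (6.33 ± 0.11, adjusted p 4.21e-11) and fell by 41.3% in ZMYND8 KD (-0.77 ± 0.18, adjusted p 0.00965). Elongases of the ELOVL family split. ELOVL7 had 9.52 and 13.7 normalized counts in parental and 455 and 517 in ZMYND8 OE (5.36 ± 0.21, adjusted p 5.4e-09), and it was lower in ZMYND8 KD (-0.79 ± 0.23, adjusted p 0.0328). ELOVL3 was higher in ZMYND8 OE, with 59.2 and 64.3 against 7.14 and 5.87 normalized counts (3.24 ± 0.34, adjusted p 1.3e-05). ELOVL4, which makes very long fatty acids, went the other way from them, lower in ZMYND8 OE (-0.33 ± 0.063, adjusted p 0.00102) and higher in ZMYND8 KD (0.79 ± 0.082, adjusted p 8.09e-05).

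Some members rest on reads that could be shared with other places in the genome. Of the exonic 31-base words of ACACA, 99.4% also lie on alternate contigs of the reference, and 86.3% of those of LSS do. For HSD17B7 65.6%, for CYP51A1 43.8% and for SCD 29.2% of such words occur elsewhere on the primary chromosomes. This share is 13.0% for FDPS and 11.0% for MSMO1. The exons of CYP51A1 overlap another annotated gene on the same strand over 80.6% of their length, and those of EBP over 36.4%. On the opposite strand, HMGCS1 is overlapped over 37.7%, ACAT2 over 22.2%, FDPS over 18.6% and IDI1 over 14.8% of its exon length. Smaller shares were found in other members, among them FADS1 (4.79%) and FADS2 (4.64%), which overlap each other. The strand setting of the counting was not given in the sources used here, so the counts of these genes are uncertain.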

How the data were processed

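The authors deposited raw counts, as whole reads assigned to each gene, in 1 table for all 8 libraries. Per the methods, Trim_Galore trimmed the read pairs, pairs under a Phred score of 25 were dropped, Hisat2 placed the remainder on GRCh38, and featureCounts assigned them to genes of GENCODE release 28. The strand setting was not given in the sources used here, and the release behind the deposited counts could not be checked. Alternate contigs in a reference, and reads that match several places, can lower the counts of a gene. Of 60662 lines, 3 that belong to 1 gene split over several lines were left out. Symbols came from GENCODE release 44, in which 60418 of the 60659 identifiers were found.

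After filterByExpr and TMM scaling, two-sided quasi-likelihood tests were run in edgeR 4.0.16 under R 4.3.3 (with limma 3.58.1), each comparison in its own 4 libraries and the difference of effects in all 8. Adjusted p-values are Benjamini-Hochberg values over all genes tested. A standard error is the absolute log2 fold change divided by the square root of the F statistic. With 2 libraries per group, p-values rest on a spread shared across genes. No pair of replicates agreed within counting noise (chi-square per degree of freedom 6.05 to 8.86). On simulated counts with 200 genes changed by 1 on the log2 scale, edgeR called 200 of 200 changed genes in the overexpression comparison (20550 genes) and in the knockdown (19716 genes), and 13 and 1 unchanged genes. The changed genes were drawn from those with ample counts, and all genes shared a dispersion of 0.004. The simulation does not show how changes below 2-fold are called, and no member reached 2-fold in the knockdown.

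The members and all gene lists were chosen with earlier results of these data known. Values in every library were given for members with a called change of at least 2-fold and, in each role, for those with the largest absolute log2 fold change in the overexpression and in the knockdown. Of each list of other genes, the 3 called genes with the largest change in each of these comparisons were named. ACACA, ABCA1, SCAP and ACLY were given more values than this rule asks after these had been seen. Adjusted p-values and values under alternatives were also given for other members outside the rule, such as MVK, HMGCS1, FDFT1, CYP51A1, SC5D and ELOVL6. The alternatives tried were upper quartile and RLE normalization, no filter, DESeq2 1.42.0, other thresholds, 1 fit of all libraries, the replicate number as a block, loess corrections for gene length alone and together with GC content, and leaving out each library. A block with crossed numbers was added after seeing the data.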

Additional observations from a re-analysis of the deposited data

Results flagged for a closer look

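In 22 members the effect of ZMYND8 overexpression differed from that of the knockdown, by the test of the difference over all 8 libraries with edgeR and an adjusted p below 0.05. The values below are the log2 effect of ZMYND8 OE minus the log2 effect of ZMYND8 KD. Among the sterol enzymes the difference was -0.76 for MVD, -0.82 for FDPS, -0.38 for FDFT1, -0.34 for SQLE and -1.09 for LSS. It was -1.18 for MSMO1, -0.50 for NSDHL, -0.66 for HSD17B7 and -1.15 for DHCR7, with the opposite sign for TM7SF2 at 1.18. Among SREBP control genes it was -0.998 for SREBF1 and -0.22 for SREBF2. Among transport genes it was -1.25 for STARD4, -0.91 for NPC1, -1.08 for NPC2, -1.04 for ABCA1 and 4.11 for ABCG1. Among fatty acid genes it was -1.81 for FASN, -0.96 for SCD, -1.04 for ACLY, -0.45 for FADS1 and -0.19 for FADS2. The adjusted p-values ran from 6.75e-11 for ABCG1 to 0.0317 for FADS2. The 2 experiments have different controls, and the control groups themselves differed in 28 of the 35 genes, so the part of the controls in these differences cannot be told apart from that of ZMYND8. With 2 libraries per group, no library could be checked as an outlier of its group.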

How the results depend on the processing

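The counts of called members held within 1.5 times under all normalizations, DESeq2, the single fit, the trends taken out and the libraries left out. Leaving out 1 library gave 29 to 33 called in ZMYND8 OE, 15 to 19 in ZMYND8 KD, 27 to 29 in KD control against parental and 20 to 22 for the difference of effects. Requiring a 2-fold change gave 15, 0 and 9 in the 3 comparisons. Over all genes tested it gave 3876 of 20835, 388 of 19789 and 4405 of 20385 in the same order. Dropping the filter on low counts gave 13 members in ZMYND8 KD, and 2932 of all genes against 4707 with the filter. The cause of this loss was not tested.

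The sterol median of -0.62 in ZMYND8 OE became -0.54 with upper quartile normalization, -0.64 with DESeq2, -0.68 with the length trend taken out and -0.65 with the length and GC trends taken out, and ran from -0.67 to -0.61 with a library left out. The fatty acid median of -0.69 became -0.61 with upper quartile normalization and ran from -1.04 to -0.67 with a library left out. In ZMYND8 KD the sterol median ran from -0.32 to -0.25. The fatty acid median of 0.06 there became 0.0436 with upper quartile normalization, 0.0321 with the length trend and 0.0278 with both trends taken out, and ran from -0.12 to 0.0407, reversed without ZMYND8 KD replicate 1. Between the controls, upper quartile normalization gave -0.23 for the sterol and -0.98 for the fatty acid median, and the length and GC correction -0.44 and -0.85.

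For the 19 members named by the rule, 648 of 684 values under alternatives kept their direction and their side of the threshold, 19 were no longer called, 5 became called and 12 changed sign, all 12 in comparisons where the gene was not called. Of these 12, 11 stayed uncalled and 1, TM7SF2 between the controls, became called as an increase. With a library left out in ZMYND8 KD, these were LSS (-0.296 to 0.0197), DHCR7 (-0.135 to 0.00762), SREBF1 (-0.104 to 0.0335, and 0.0193 without KD control replicate 1) and FASN (-0.0143 to 0.188). Between the controls, TM7SF2 became 0.0014 with upper quartile normalization, 0.0110 with the length trend and 0.42 with both trends taken out (adjusted p 3.79e-05). MYLIP became 0.0344 with upper quartile normalization and 0.0314 with the length trend taken out, and ran from -0.0931 to 0.0355 with a library left out.

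The labels give replicate numbers and name no pairing, and whether libraries of the same number were prepared together was not tested. Same-numbered deviations had a correlation of 0.04 for ZMYND8 OE and parental, 0.19 for ZMYND8 KD and KD control, and -0.10 for KD control and parental. With the replicate number as a block, 31 members were called in ZMYND8 OE, 23 in ZMYND8 KD, with SC5D, SCAP and NPC2 added (6241 of all genes, against 4707 without the block), 28 between the controls and 23 for the difference, with IDI1 added. With the numbers crossed as a block, 28 members were called between the controls and 12904 of all genes, against 12719.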
